A study of Mus musculus with 33 samples.

Results

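Of 30815 regions counted by chromatin immunoprecipitation and sequencing (ChIP-seq) in a mouse cardiac fibroblast line, 515 passed a fold rule for Gata4 and for Tbx5 when Gata4, Mef2c and Tbx5 were expressed together. Mef2c stayed under the rule at these regions in the same cells. Gata4 expressed alone and Tbx5 expressed alone also stayed under it. They are called the jointly gained regions below. Enrichment was the log2 ratio of the CPM of a group's summed libraries (counts relative to the total over all regions) to those of the 9 summed input libraries, with 5 CPM added to each. A region counted as bound at 0.585 or more, which is a 1.5-fold ratio. The libraries of Gata4 alone numbered 1 to 3 entered the rule. The signals of Gata4 and Tbx5 in both settings, of Mef2c with all factors and of the inputs therefore chose the regions, and their values describe the regions. Counts of test calls on them are given beside the share of all regions, and nothing is read from them.

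Gata4 is a zinc-finger factor that recognises GATA sequences, Tbx5 is a T-box factor, and Mef2c is a MADS-box factor that recognises A and T rich sequences. They take part in the gene programme of the developing heart, where Gata4 and Tbx5 can contact each other and occupy shared enhancers. Forced expression of the 3 together is a known way to turn fibroblasts toward a cardiomyocyte-like state. ChIP-seq counts DNA fragments pulled down with an antibody to a factor, and input chromatin is the same kind of material without that step.

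By the labels, all groups shared an immortalised line of neonatal cardiac fibroblasts that carries large T antigen. It came from the Cd-1 strain with the alpha-MHC-GFP genotype, in which a cardiomyocyte promoter drives a fluorescent reporter. The cells received retroviruses for Gata4, Mef2c and Tbx5 together ("with all factors") or for a single one of them ("alone"). Every group was grown with sb431542, a TGF-beta inhibitor, and xav939, a Wnt inhibitor, and was collected unsorted at day 2. The labels name a single line, although counts on the Y chromosome differed between libraries, as given below. No sort selected infected cells. A higher share of cells with a factor at a region and more factor per cell cannot be told apart in such material. Gata4 and Tbx5 were pulled down with goat polyclonal antibodies from Santa Cruz, and Mef2c with a rabbit monoclonal from Cell Signal. The study's title places the question in how the factors' functions depend on context during cardiac reprogramming.

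Counts per library over the regions ran from 97474 to 2377616 in 33 libraries. With all factors there were 6 Gata4, 4 Tbx5, 4 Mef2c and 6 input libraries. Alone there were 4 Gata4, 3 Tbx5 and 3 Mef2c libraries, with 1 input for each factor. Gata4 libraries 1 and 6 with all factors agree within sampling noise (chi-square test of counts, p = 0.0785), as do inputs 1 and 3 (p = 0.4672) and inputs 2, 4 and 5 (p from 0.2716 to 0.9486), and each set was counted as 1 sample. That left 29 samples. The library labelled Gata4 alone number 4 stood apart from the others of its group and near the inputs. It had a median enrichment of -0.03 over all regions, against -0.68 to -0.54 for the other 3. The libraries with all factors also differed among themselves in counts on the 5 Y chromosome regions. Gata4 libraries 1, 3 and 6 had 138 to 209.5 CPM there and libraries 2, 4 and 5 had 1.06 to 25.57, while the single-factor libraries had 5.31 to 284.2. Inputs with all factors numbered 1, 3 and 6 had 37.47 to 43.09 CPM, and those numbered 2, 4 and 5 had 0 to 10.31. The single-factor inputs had 30.78 to 71.9 CPM. The labels do not say what sets these libraries apart, and whether they came from the same cells was not tested. Using only the libraries numbered 1, 3 and 6 for the cells with all factors left 489 jointly gained regions, 327 of them among the 515. That choice held 1 Tbx5 and 1 Mef2c library, each number 3. These had 11.65 and 11.75 CPM on the Y regions, within the range of Gata4 libraries 2, 4 and 5. They were above libraries 2, 4 and 5 of their own factor, which had 0 to 1.723 for Tbx5 and 0 to 1.745 for Mef2c. Using only the libraries numbered 2, 4 and 5 left 544, of which 402 were among the 515.

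In cells with all factors, 1703 regions passed for Gata4 and Tbx5 but not for Mef2c. These fell into 461 that each factor also bound alone, 533 that only Tbx5 bound alone, 194 that only Gata4 bound alone, and the 515 bound by neither alone. A further 598 regions passed for the 3 factors together. In the jointly gained regions the median enrichment of Gata4 with all factors was 0.90, against -0.38 over all 30815 regions. That of Tbx5 was 0.94, against -0.67. The median of Mef2c in the same cells was -0.55, against -0.91.

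The medians of the factors alone were -0.44 for Gata4 and -0.17 for Tbx5. The rise from alone to all factors had a median of 1.40 for Gata4 and 1.24 for Tbx5. It reached 1, a doubling, for each of them at 270 regions. Both factors were below 0 alone at 236 of the 515 regions (45.8%). The remaining regions had at least one factor between 0 and the threshold before the factors were combined.

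"Gained" here means that the signal crossed the threshold, not that none was present before. In the 10106 regions where no factor passed in any group, the median enrichment was -1.06 for Gata4 alone and -1.31 for Tbx5 alone. The jointly gained regions lay above both values, at -0.44 and -0.17. Gata4 alone was within 0.2 below the threshold at 50 of them and Tbx5 alone at 67.

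**Figure D1:**
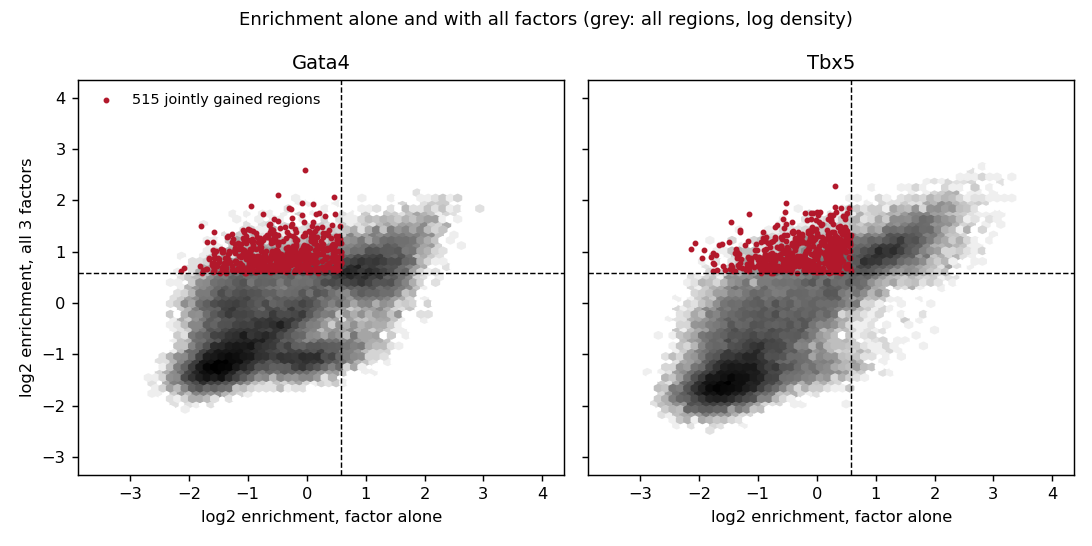
Log2 enrichment of Gata4 (left) and Tbx5 (right) over pooled input in cells with that factor alone (horizontal) and in cells with all 3 factors (vertical), with all 30815 regions as grey density on a log scale and the 515 jointly gained regions as red points. Dashed lines mark the threshold of 0.585, and the red points fill the upper left field by the rule, most of them to the right of the densest grey area.

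The scaling of the libraries sets which regions qualify. The CPM used above take the total over the regions, so a group with tall peaks shows less elsewhere. Scaling the summed groups with TMM factors, which were 0.31 to 0.753 of the inputs', gave 442 jointly gained regions, but 119 of these were among the 515 (23.1%). Of the 396 left out, Tbx5 alone passed at 268, Mef2c with all factors at 188 and Gata4 alone at 129, and some failed on more than one count. Gata4 and Tbx5 with all factors passed at all 396, as they had to, since every TMM factor was under 1 and raised every enrichment. At the 515 regions TMM scaling placed the median of Tbx5 alone at 0.65, over the threshold, against -0.16 over all regions. The median of Gata4 alone became 0.06, against -0.11.

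Counting error alone also bears on membership. The intervals in this paragraph and the next cover the summed ChIP counts, with the input taken as measured. The inputs' own counting error is left out, and wider intervals would not keep more regions. The 95% counting interval lay on the region's own side of the threshold at 376 regions for Gata4 with all factors, 381 for Tbx5 with all factors, 487 for Mef2c with all factors, 441 for Gata4 alone and 377 for Tbx5 alone. It did so for the 5 criteria at once at 173 regions (33.6%). The median region had 276 summed counts for Gata4 and 277 for Tbx5 with all factors, but 34 and 35 alone and 57 in the inputs. Such intervals and the floors below cover counting error only, since fragments without molecular identifiers are not independent molecules.

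The thresholds cut through a continuous range. Just inside for Gata4 lay chromosome 7, 149769809 to 149770125 (0.59, interval 0.39 to 0.77), and just outside lay chromosome 12, 113922470 to 113922850 (0.58, interval 0.41 to 0.76). For Tbx5 the nearest were chromosome 5, 92010983 to 92011203 (0.59) and chromosome 12, 25528224 to 25528948 (0.58). For Mef2c with all factors, chromosome 11, 102745971 to 102746175 (0.58) was kept and chromosome 8, 129361464 to 129361752 (0.61) was not. For Gata4 alone these were chromosome 8, 47459310 to 47459984 (0.58) and chromosome 7, 52347022 to 52347222 (0.59). For Tbx5 alone they were chromosome 16, 14024839 to 14025107 (0.58) and chromosome 10, 82328838 to 82329153 (0.59). The intervals of each such pair overlapped.

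Sample by sample, the Gata4 medians at the jointly gained regions with all factors were 0.95, 0.91, 0.75, 0.55 and 1.09 for samples 1 to 5. Those of Gata4 alone were -0.32, -0.57 and -0.51 for samples 1 to 3 and 0.12 for the sample labelled number 4. Every sample with all factors lay above every sample alone, with the least distance between the samples numbered 4 of each group.

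The Tbx5 medians with all factors were 1.04, 0.96, 0.47 and 1.18 for samples 2 to 5, against -0.04, -0.39 and -0.31 alone. The groups did not overlap. Sample 4 was the lowest for Tbx5, as it was for Gata4, while its median over all regions was close to those of the other samples. The 6 input samples ran from -0.08 to 0.17. The highest was the input of Tbx5 alone, the shallowest library.

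**Figure D2:**
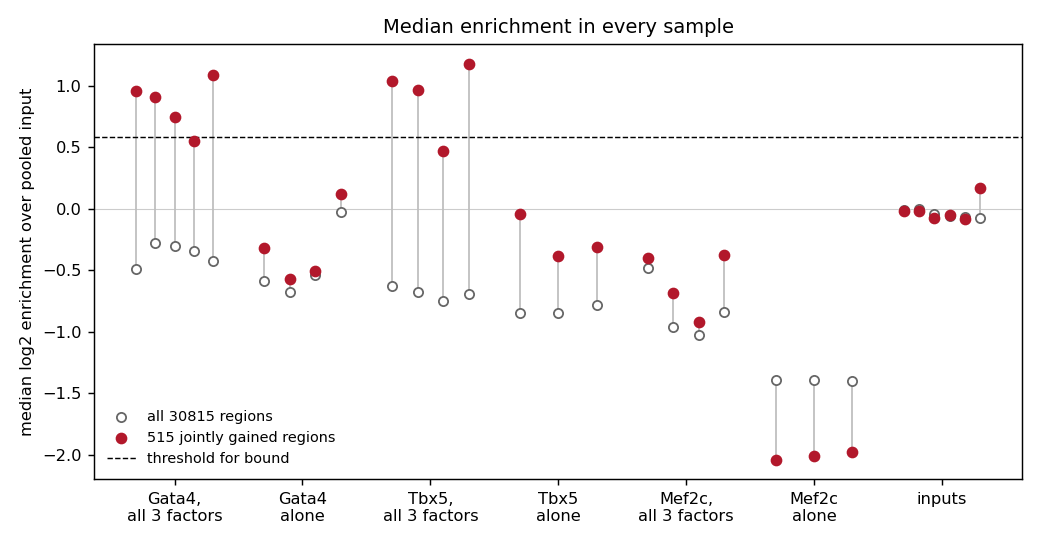
Median log2 enrichment over pooled input in each of the 29 samples, at the 515 jointly gained regions (red) and over all 30815 regions (open), with a grey line joining the values of a sample and a dashed line at the threshold. Gata4 and Tbx5 with all factors stand above all other groups at the red points, lowest in sample 4 of each, and Mef2c alone stands below all others.

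Because these samples chose the regions, each was also left out of the choice and the regions were chosen from the rest. The pooled inputs stayed in the choice and also entered the left-out enrichments. Any same-numbered sample of the other factor stayed in the choice too. Such Gata4 and Tbx5 samples with all factors deviated together (r 0.19 to 0.50). The left-out shares are therefore not independent of the choice and are a description. Regions chosen without a Gata4 sample with all factors passed the threshold in that sample at 45.1 to 90.1% of cases, against 15.6 to 22.5% of all regions. For Tbx5 with all factors the share was 34 to 95.8%, against 20.2 to 24.3%. The sample with the lowest share was number 4 for both factors. The left-out medians ran from 0.50 to 1.11 for Gata4 and from 0.35 to 1.24 for Tbx5, all above the same samples' medians over all regions.

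Left out in the same way, samples of Gata4 alone passed at 4.37 to 12.4% of the regions chosen without them, against 20.4 to 22% of all regions. Samples of Tbx5 alone passed at 7.23 to 23.7%, against 19.8 to 21.2%. The 23.7% was that of Tbx5 alone number 1, the single one of these samples above its own share over all regions (21.2%). Mef2c with all factors passed at 4.3 to 10.8%, against 16.2 to 23.4%. The sample of Gata4 alone number 4, which the rule never used, passed at 14.4% of the 515 regions, against 9.92% of all regions, and had a median of 0.12, against -0.03.

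**Figure D3:**
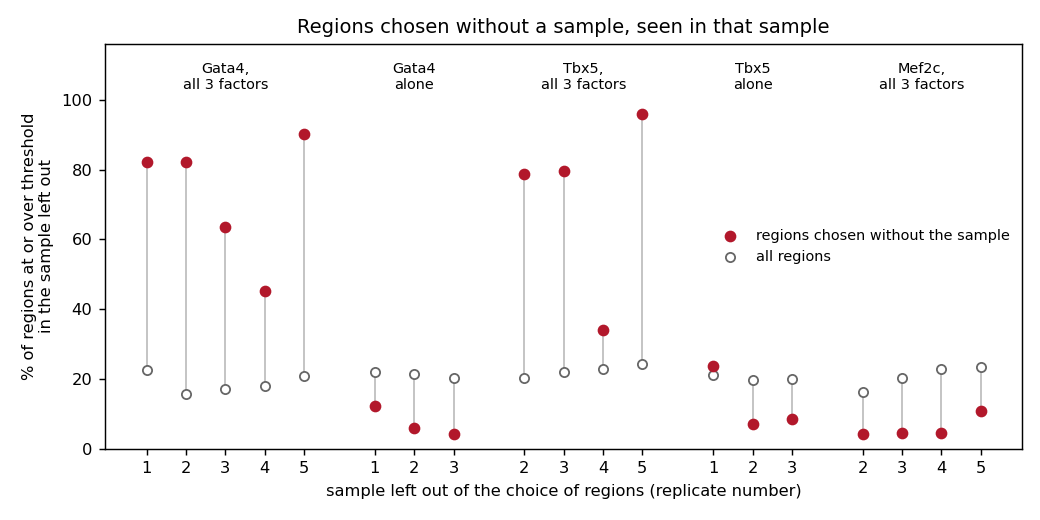
Percentage of regions at or over the threshold in a sample that was left out of their choice (red) and of all 30815 regions in that sample (open), for the samples of the groups named along the top. The pooled inputs stayed in the choice. With all factors, Gata4 and Tbx5 samples run from 34 to 95.8%, and samples 4 are the lowest of each, whereas the samples of the groups required to be under the threshold run from 4.3 to 23.7%.

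Single regions separated less fully than their medians. Every Gata4 sample with all factors was above every Gata4 sample alone at 274 of the 515 regions, where 7.01% of all regions did so, and below at none, where 6.24% did. Without the sample alone number 4, it was 364 and none (18.9 and 15.4% of all regions). For Tbx5 it was 329 and none (14.8 and 11.4%). Since the rule used this contrast, these shares describe the regions only. edgeR's quasi-likelihood test, at a Benjamini-Hochberg adjusted p under 0.05, called Gata4 higher with all factors at 402 of the 513 regions that passed its filter on low counts, with none lower. The rule fixed the direction of this contrast, so these calls and those for Tbx5 below describe the regions and support nothing. Of all regions tested, 16.5% were called higher and 15.2% lower. Without the sample number 4 the call was made at 456, where 27.6% of all regions were called higher. Tbx5 was called higher at 353 of 513, with none lower, where 18.8 and 14.9% of all regions were. Both were called at 305 regions and neither at 65.

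Against the inputs, every Gata4 sample with all factors was higher than every input sample at 166 of the 515 regions and lower at none (7.31 and 7.39% of all regions). Every Tbx5 sample was higher at 173 and lower at none (13.8 and 20.2%). The inputs are shallow, with 97474 to 301678 counts per library, so that single input samples vary widely at a region.

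The 10 strongest regions outside chromosome 18, whose regions are not named here, ranked by the lower of their Gata4 and Tbx5 enrichments with all factors, spanned lower values of 1.44 to 1.94. In 9 of the 10, every Gata4 sample with all factors was above every sample alone, and the same count held for Tbx5. The exception for both was chromosome 13, 96574125 to 96574443. The strongest region was chromosome 4, 107001665 to 107002009. The files do not tie regions to genes, and no annotation of the mm9 build was used here.

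At this strongest region of 345 bp, Gata4 with all factors had 110.3, 140.1, 84.95, 68.18 and 154.1 CPM in samples 1 to 5, and Gata4 alone had 41.39, 25.38, 8.797 and 49.38 CPM in samples 1 to 4. Tbx5 with all factors had 229.2, 130.3, 62.7 and 198.3 CPM in samples 2 to 5, against 53.56, 8.962 and 35.31 CPM alone. The input samples ran from 15.64 to 41.04 CPM. Neither factor's samples overlapped between the settings, and sample 4 was the lowest of each with all factors. Mef2c had 23.49, 10.91, 9.306 and 34.49 CPM with all factors and 4.356, 7.23 and 1.062 CPM alone, and here too the groups did not overlap. Tbx5 alone had an enrichment of 0.32 at this region, and TMM scaling took it off the list.

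Next was chromosome 2, 31197534 to 31197813, of 280 bp. Gata4 with all factors had 183.3, 138.9, 143.3, 119.3 and 174.3 CPM, against 18.63, 23.69, 11 and 58.36 CPM alone. Tbx5 with all factors had 168.9, 195.0, 114.9 and 157.8 CPM, against 49.44, 65.72 and 40.02 CPM alone. Inputs ran from 23.97 to 51.3 CPM. All samples with all factors stood above all samples alone and all inputs. Mef2c had 20.88, 18.46, 26.75 and 27.34 CPM with all factors and 5.445, 2.066 and 9.562 CPM alone, so that Mef2c alone lay below every input.

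At chromosome 10, 110255314 to 110255588, of 275 bp, Gata4 with all factors had 163.6, 168.8, 123.9, 71.02 and 171.1 CPM, against 31.04, 18.61, 13.2 and 31.42 CPM alone. Tbx5 with all factors had 155.1, 148.3, 42.84 and 139.7 CPM, against 28.84, 17.92 and 11.77 CPM alone. Inputs ran from 20.52 to 39.94 CPM. Sample 4 was lowest for both factors, and its Tbx5 value of 42.84 CPM was just above the highest input. Gata4 alone was at -0.49 and Tbx5 alone at -0.54 in enrichment. This was the one region of the 10 that stayed on the list under TMM scaling.

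The fourth region was chromosome 7, 56080569 to 56080929, of 361 bp. Gata4 with all factors had 124.9, 113.7, 99.1, 48.29 and 151.9 CPM, against 37.25, 30.46, 21.99 and 35.91 CPM alone. Tbx5 with all factors had 118.9, 116.5, 42.84 and 131.3 CPM, against 28.84, 17.92 and 21.19 CPM alone. Inputs ran from 15.98 to 61.55 CPM. The settings did not overlap for either factor, but sample 4 of each lay below the highest input, which was that of Tbx5 alone. Mef2c had 20.88, 16.78, 5.816 and 24.81 CPM with all factors. Mef2c alone had 0, 1.033 and 2.125 CPM, 3 counts in the 3 samples together.

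**Figure D4:**
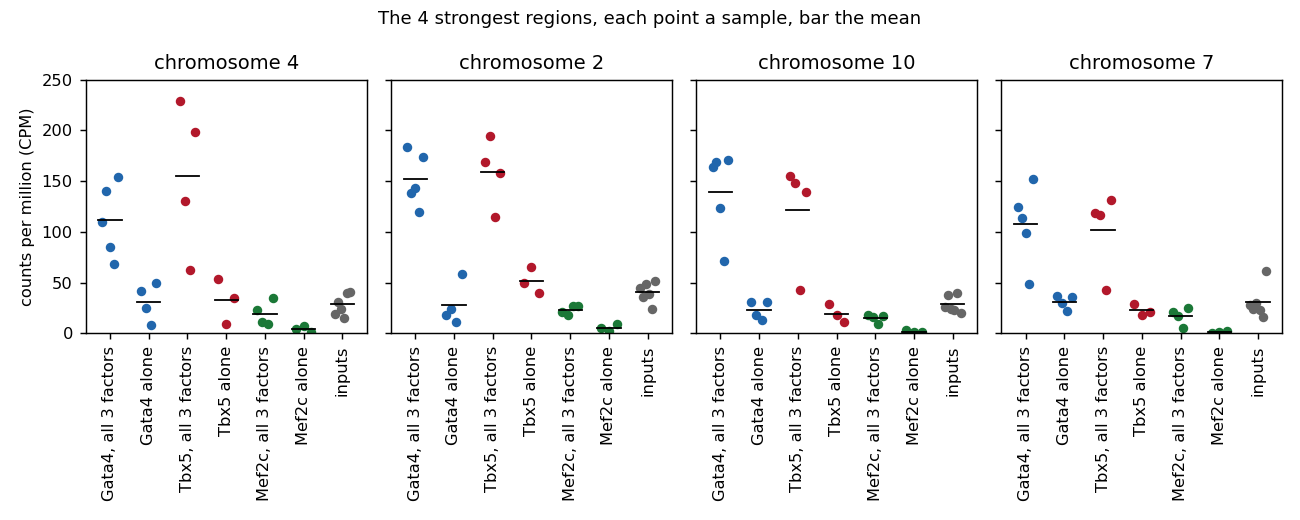
CPM at the 4 strongest jointly gained regions (chromosomes 4, 2, 10 and 7, in order of rank), with each point a sample and each bar the group mean. Gata4 (blue) and Tbx5 (red) are high with all factors and near the inputs (grey) alone. Mef2c (green) lies within or below the range of the inputs with all factors and is lowest alone.

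The next regions kept the same shape with other balances. At chromosome 13, 38141673 to 38142196, Gata4 with all factors ran from 196 to 215.7 CPM and Tbx5 from 173.5 to 234.4 CPM, against 30.46 to 62.85 and 59.74 to 75.33 CPM alone. Mef2c with all factors ran there from 83.08 to 99.2 CPM, an enrichment of 0.58 that is just under the threshold, against 4.25 to 8.263 CPM alone. At chromosome 12, 12963519 to 12963943, Tbx5 ran from 2.354 to 16.48 CPM alone and from 66.88 to 153.4 CPM with all factors, a difference of 3.02 in enrichment. Tbx5 alone was thus well under the inputs there, in contrast to the Tbx5 signal alone at chromosome 13.

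The other members of the 10 were chromosome 2, 27726486 to 27726898, chromosome 13, 46618653 to 46619080, chromosome 9, 37379697 to 37380133, and chromosome 13, 96574125 to 96574443. Their Gata4 enrichment with all factors ran from 1.44 to 2.07 and their Tbx5 enrichment from 1.63 to 1.85. At the last of them Gata4 ran from 25.57 to 83.25 CPM with all factors and from 16.56 to 44.89 CPM alone, so the settings overlapped. Tbx5 ran from 51.2 to 129.3 CPM there, against 14.94 to 57.68 CPM alone. The overlap came from sample 4 with all factors and, alone, from sample 4 of Gata4 and sample 1 of Tbx5.

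Gata4 and Tbx5 were of similar height at most of the regions. Their enrichments with all factors differed by no more than 0.5 at 447 of 515 (86.8%), and Gata4 was the higher at 257 (49.9%), against 64.8% of all regions. The rule held both at 0.585 or more, and their 90th percentiles were 1.36 and 1.41. The gap between them was thus narrowed by the rule. The quartiles of Gata4 less Tbx5 were -0.26 and 0.20, against -0.30 and 0.67 over all regions. They were -0.24 and 0.27 where each factor also bound alone, so this balance was not particular to the 515. Regions that a single factor bound alone leaned toward that factor, with medians of 0.41 for Gata4 and -0.47 for Tbx5. Across the 515 regions the 2 enrichments had a Pearson r of 0.34, against 0.57 across all regions. These points share libraries, pooled input and a threshold that narrows their range. Without pairing the samples, edgeR called Gata4 higher than Tbx5 at 4 regions (23.4% of all regions tested) and lower at 93 (26.6%).

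The counts behind that split moved with the settings. With the replicate number as a block, which pairs Gata4 and Tbx5 samples of these cells, 9 were called higher for Gata4 (29.8% of all regions) and 210 lower (29.6%). Scaling by library totals gave 23 higher and 40 lower. Without Tbx5 sample 4 the calls in both directions came to 151, and without Tbx5 sample 5 to 43. The share of all regions called with library totals, or without either of these Tbx5 samples, is not given. Those counts therefore do not separate a change at the jointly gained regions from a change at all regions. Both factors were required to be over the threshold, so all counts in this paragraph are a description.

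The widest gap toward Gata4 was at chromosome 13, 38496818 to 38497228, which also had the highest Gata4 enrichment of the 515 (2.59). Gata4 with all factors had 241, 201.1, 212.4, 292.6 and 269.9 CPM there, against 37.25, 35.53, 30.79 and 35.91 CPM alone. Tbx5 had 99.96, 117.6, 61.65 and 122.2 CPM, against 43.26, 44.81 and 35.31 CPM alone. Here sample 4 was the highest of the Gata4 samples and the lowest of the Tbx5 samples, unlike at the strongest regions. The next gaps toward Gata4 were at chromosome 15, 58114648 to 58114974 (1.01), and chromosome 1, 154504071 to 154504354 (0.82).

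The widest gap toward Tbx5 was at chromosome 7, 149769809 to 149770125, the region just inside the Gata4 threshold. Tbx5 with all factors had 251.6, 138.8, 7.315 and 97.77 CPM in samples 2 to 5, against 14.42, 5.974 and 9.416 CPM alone. Its samples with all factors spanned a wide range, and sample 4 lay within the range of the samples alone. Gata4 had 34.32, 63.45, 24.78, 11.36 and 74.38 CPM with all factors, again lowest in sample 4. At chromosome 9, 119425926 to 119426153, Tbx5 ran from 50.16 to 98.23 CPM and Gata4 from 21.24 to 38.25 CPM, without overlap. At chromosome 7, 106729762 to 106730319, Tbx5 ran from 165.1 to 296.4 CPM and Gata4 from 79.54 to 133.6 CPM, also without overlap.

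Mef2c alone was not itself used to choose the regions, and it was low there. None of the 515 regions passed for Mef2c alone, where 19.1% of all regions did. The rule bears on this, since Mef2c with all factors had to be under the threshold and the enrichments of Mef2c in both settings had a Pearson r of 0.76 across all regions, which share the pooled input. Of the 1703 regions with Gata4 and Tbx5 but no Mef2c in cells with all factors, 0.29% passed for Mef2c alone, so the low share is not a trait of the 515. Its median enrichment was -2.01, against -1.40 over all regions, and it was under -1 at 484 regions (94%), against 61% of all regions. The 3 samples agreed closely, with medians of -2.04, -2.01 and -1.98. In CPM their medians were 4.36, 4.13 and 4.25, against 8.71, 8.26 and 8.5 over all regions, which does not involve the inputs.

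The low level was close to that of regions without any called factor. In the 10106 regions that passed in no group the median for Mef2c alone was -1.84. Among the other regions with Gata4 and Tbx5 but no Mef2c in cells with all factors, it was -1.69 where Gata4 was bound alone, -1.88 where Tbx5 was, and -1.17 where each was. In the 598 regions bound by the 3 factors together it was -0.10. The jointly gained regions thus had the lowest median of these classes, and the differences were not tested.

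With edgeR's quasi-likelihood test and TMM scaling, Mef2c alone was called lower than the inputs at 359 of 454 jointly gained regions tested, where 39.7% of all regions were called lower. It was called higher at 10, where 33.6% of all regions were. The other 61 did not pass the filter on low counts. The inputs entered the rule, and a region could pass the filter through the inputs, so these counts describe the regions only. With no filter 334 of the 515 were called lower and 15 higher, where 33.8 and 32.2% of all regions were. The median log2 fold change was -1.49, against -0.43 over all regions tested. Scaled by library totals, 446 were called lower and none higher, where 67.5% of all regions were called lower. Counting every library as a sample left 197 lower and none higher. The share of all regions called in that fit is not given, so the smaller count is not read as a trait of the 515. Every Mef2c alone sample was below every input sample at 425 regions, where 43.8% of all regions were, and above at none, where 16.2% were. TMM scaling of the summed groups moved the median enrichment to -1.01, and that over all regions to -0.20.

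Among the regions that passed edgeR's filter, the 3 with the largest fitted fall against the inputs held 3 counts each in the 3 Mef2c alone samples together. At chromosome 19, 47502771 to 47502983, there were 55 input counts, and the inputs were 30.2 times higher by library totals (95% counting interval 9.82 to 151). At chromosome 7, 56080569 to 56080929, the fourth of the strongest regions, the ratio was 25.8 (8.32 to 130 with 47 input counts). At chromosome 19, 57064456 to 57064658, it was 25.3 (8.13 to 127 with 46 input counts). Gata4 alone and Tbx5 alone were also under the inputs at both chromosome 19 regions, with enrichments of -0.89 and -1.42 at the first and -0.62 and -0.65 at the second.

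Of the regions tested, the 3 called highest against the inputs did not hold under the other scaling. They were chromosome X, 6114689 to 6115145, chromosome 7, 132900270 to 132900747, and chromosome 11, 102745971 to 102746175. Their log2 fold changes were 1.86, 1.64 and 1.51 with TMM scaling (edgeR, adjusted p = 8.29e-07, 1.88e-09 and 1.21e-05) and 0.37, 0.15 and 0.02 with library totals (adjusted p = 0.303, 0.567 and 0.959). At the first, Mef2c alone had 14.16, 33.05 and 42.5 CPM and the inputs spanned 0 to 46.92 CPM, so the samples overlapped.

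Mef2c was higher with all factors than alone at 512 of the 515 regions (99.4%), against 68.1% of all regions, although it stayed under the threshold by the rule. The median difference in enrichment was 1.37, against 0.31 over all regions and 0.18 in the regions that passed in no group. With all factors the Mef2c median of -0.55 was above the -1.63 of those regions. In edgeR's test Mef2c was called higher with all factors at 360 of 408 regions tested, with none lower, where 31.3% of all regions were called higher and 28.8% lower. Mef2c with all factors was part of the rule, and regions with few counts for Mef2c alone passed the filter through the samples with all factors, so this count is a description only. Every sample with all factors was above every sample alone at 413 of 515 and below at none (29.7 and 14.2% of all regions).

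The Mef2c samples with all factors had medians of -0.40, -0.68, -0.92 and -0.38 at these regions for samples 2 to 5, against -0.48, -0.96, -1.03 and -0.84 over all regions. Each was above its own level over all regions, by less in samples 2 and 4. All were far above the 3 samples alone. The difference was not particular to the jointly gained regions. Its median was 1.07 where only Gata4 was bound alone, 1.22 where only Tbx5 was, 0.68 where each was, and 1.33 at the regions of the 3 factors.

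**Figure D5:**
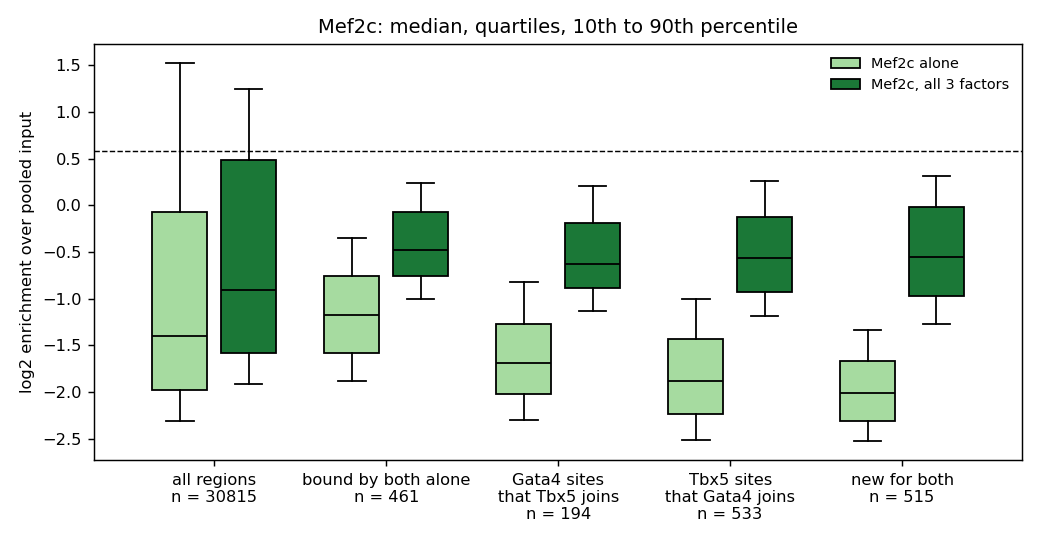
Log2 enrichment of Mef2c over pooled input alone (light) and with all factors (dark), with the median, the quartiles as boxes and the 10th to 90th percentiles as whiskers, for all regions, for the other regions with Gata4 and Tbx5 but no Mef2c in cells with all factors, by which factor bound alone, and for the 515 jointly gained regions (marked new for both). Mef2c alone is lowest at the jointly gained regions (median -2.01), while the dark boxes of the 4 classes, all under the dashed threshold by the rule, have similar medians of -0.62 to -0.47.

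Inputs did not show a call at the regions between the settings. Of the 33 jointly gained regions deep enough to pass the filter, none was called by edgeR between inputs with all factors and single-factor inputs, 2 had an unadjusted p under 0.05, and 0 of the 853 regions tested in all were called. With no filter 0 of 515 were called and 17 had an unadjusted p under 0.05, and DESeq2 called 0. With 3 samples against 3, and a median of 57 counts per region over the 9 inputs together, the test says little about most of the 515. The size of difference that it could have called there was not determined. Median input CPM per kb was 105.7 at the regions, against 118.9 over all regions.

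The jointly gained regions were wider than most. Their median length was 311 bp, against 234 bp over all regions and 202 bp in those that passed in no group. The other classes bound by Gata4 and Tbx5 without Mef2c had medians of 285, 334 and 311 bp, and the regions of the 3 factors had 389.5 bp. Length was not part of the rule, but how the region edges were set is not given in the sources used here.

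They also lay closer to other regions. The median gap to the nearest counted region was 7159 bp, against 12844 bp for all regions. Another region lay within 10 kb of 295 (57.3%), against 43.9% of all regions. A region bound by Tbx5 with all factors was within that distance at 165 (32%), against 17%, and one bound by Gata4 with all factors at 122 (23.7%), against 14.4%. For Mef2c it was 114 (22.1%) with all factors, against 14.9%, and 57 (11.1%) alone, against 11.5%. The classes bound by Gata4 and Tbx5 in other ways had like values, with another region within 10 kb at 55.7 to 61% of them.

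Of the 515 regions, 42 (8.16%) had another jointly gained region within 10 kb, against 1.54% of all regions, in 21 neighbouring pairs. Neighbours of the same class were not particular to the 515. Their share was 6.57%, against 1.66% of all regions, where only Tbx5 bound alone, and 5.21%, against 1.52%, where each factor did. It was 6.52%, against 1.92%, at the regions bound by Gata4, Tbx5 and Mef2c together. Where only Gata4 bound alone it was 1.03%, against 0.63%. These differences were not tested. The closest pair of jointly gained regions abutted on chromosome 9, at 37379697 to 37380133 and 37380134 to 37380334. The former is one of the 10 strongest, and the latter was weaker, at 0.70 for Gata4 and 0.72 for Tbx5. The next pair lay 8 bp apart on chromosome 6, at 86765846 to 86766218 and 86766227 to 86766455. Tbx5 alone was among the lowest values at both, at -1.60 and -1.75, and both stayed on the list under TMM scaling. The third pair, on chromosome 8 at 35956028 to 35956385 and 35956405 to 35956605, was 19 bp apart and had Gata4 rises of 0.43 and 0.91. Members of such pairs may hold parts of the same fragments and do not count as separate observations.

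Every autosome and the X chromosome held jointly gained regions. Their share of a chromosome's regions ran from 1.03% on chromosome 13, with 15 of 1450, to 2.59% on chromosome 7, with 36 of 1391. None of the 5 regions of chromosome Y was among them. Chromosome 13, with the lowest share, held 4 of the regions named above for their strength or their Gata4 excess.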

How the data were processed

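The authors deposited 1 table of raw read counts for 30815 regions and 33 libraries. Per the submitters' processing notes, the tools were FastQC, Bowtie2 2.2.4 and featureCounts on the mm9 build. How regions and duplicates were handled is not given in the sources used here. Groups came from the labels. The rule, lists and named regions were chosen with earlier results of these data known. Named were the 10 highest by the lower enrichment, the 3 largest gaps each way, up to 3 largest calls each way for Mef2c alone and inputs, threshold neighbours and the 3 closest pairs, leaving out chromosome 18. Tests used edgeR 4.0.16 (R 4.3.3; quasi-likelihood, robust, TMM, filterByExpr with minimum count 10 and total 15), two-sided, Benjamini-Hochberg over all regions tested, and were tested on simulated data. Alternatives included DESeq2 1.42.0. p-values measure the spread between samples that the labels call biological replicates. Same-numbered Gata4 and Tbx5 samples with all factors deviated together (r 0.19 to 0.50 over 4 numbers). Same-numbered samples of a factor with all factors and alone did not do so throughout (r -0.30 to 0.25). Neither did Mef2c alone and the inputs with all factors. Other pairings, such as Mef2c with Gata4 or Tbx5 samples with all factors, were not examined. The main fit of Gata4 against Tbx5 left the samples unpaired, and pairing entered only as the replicate block among the alternatives. Depth ran from 97474 to 2377616 counts per library.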

Additional observations from a re-analysis of the deposited data

Results flagged for a closer look

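In 4 of 25 groups of 4 to 10 samples, a sample lay far from the rest by the gap to its neighbour relative to the range, where chance gives about 1 in 20. Tbx5 with all factors sample 4 was lowest at chromosome 10, 110255314 to 110255588 (42.8 CPM), and also at chromosome 7, 56080569 to 56080929 (42.8 CPM). The input of Tbx5 alone was highest at the latter region, at 61.6 CPM. Its median enrichment at the 515 regions, 0.168, was the highest of the 6 input samples. That library is also the shallowest, with 97474 counts, and its part in the result was not tested beyond leaving it out, which gave 529 jointly gained regions.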

How the results depend on the processing

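The number of jointly gained regions was 207 at a threshold of 1 (109 of them among the 515), 653 at 0.4, 557 and 458 with 1 and 10 CPM added, 557 and 402 with the inputs of cells with all factors or of single-factor cells, 530 with Gata4 alone sample 4 and 482 with libraries that agree within noise counted once. Leaving out a library gave 403 (without Tbx5 sample 5) to 597 (without Tbx5 sample 4). Over the 207 regions of the higher threshold, edgeR calls came to 176 for Gata4, 164 for Tbx5 and 176 for Mef2c with all factors against alone, 152 for Mef2c alone against input and 45 for Gata4 against Tbx5. These calls, in both directions together, came from the main fits, whose shares of all regions are given above. Counting every library as a sample left 197 calls for Mef2c alone against input. For Gata4 against Tbx5, library totals gave 63 calls and the replicate block 219. The block moved no other count by over 1.5 times (313 for Gata4, 369 for Tbx5, 313 for Mef2c, 302 for Mef2c alone against input, which shares 2 numbers with inputs of cells with all factors). No paired analysis was possible between inputs because single-factor inputs carry no number in the labels. Leaving out each sample gave 268 to 456 calls for Gata4, 254 to 424 for Tbx5, 263 to 355 for Mef2c, 257 to 378 for Mef2c alone against input, 0 between inputs and 43 to 151 for Gata4 against Tbx5. Beyond the shares given above, the share of all regions called under each setting is not given. It moved for Gata4 from 16.5 to 27.6% called higher without Gata4 alone sample 4. These counts therefore do not separate a change at the 515 regions from a change at all regions. No named fold change reversed in these fits, but TMM scaling moved the median enrichment of Tbx5 alone (0.653), Gata4 alone (0.0632) and Mef2c with all factors (0.284) from below to above 0. The inputs had the lowest median depth (186815 counts per library). The choice by Y chromosome counts, the TMM medians and the block for Mef2c alone against input were added after seeing the data.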
